A study of Mus musculus with 24 samples.

Results

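The genes described here are 10 dendritic and Langerhans cell genes, Flt3, Zbtb46, Itgax, Xcr1, Clec9a, Batf3, Cd209a, Cd207, Epcam and Cd86. They were taken by symbol from a table of 51912 genes, and each symbol matched 1 Ensembl gene. Of these 10 genes 9 passed the filter on low counts, which left 17287 genes to test, and Clec9a did not.

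RNA with a polyA tail was sequenced from the whole ear of C57BL/6 mice in 24 samples, 6 in each of 4 groups. The groups were wild type at day 5, Card14 E138A mutant at day 5, wild type at 1 month and Card14 E138A mutant at 1 month. The mutant mice carried a Card14 LSL-E138A knock-in allele, in which CreERT2, once activated by tamoxifen, allows the endogenous locus to express a psoriasis-associated form of the NF-κB activating scaffold CARD14. All 4 groups received tamoxifen into the peritoneum daily on 3 days, and times were counted from the first injection. The promoter that drives CreERT2, whether the wild-type mice carried it, and the age and sex of the mice are not given in the sources used here. Nothing in the labels says that the samples came from separate mice, so the p-values speak of sample-to-sample spread only, which may be technical.

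Dendritic cells take up antigen in tissue, carry it to the lymph node and present it to T cells on MHC class II. The skin holds several kinds: Langerhans cells in the epidermis, which express langerin and the adhesion molecule EpCAM, and in the dermis the conventional types cDC1, which depend on BATF3 and IRF8 and express XCR1 and CLEC9A, and cDC2, which often express lectins such as CD209a. Conventional dendritic cells need the receptor FLT3 and its ligand, whereas Langerhans cells are kept by IL-34 and TGF-β and renew in place.

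Promoters are shown for 4 of the genes because they differ in a motif that BATF3 and other AP-1 factors can bind. Sequences are from RefSeq on GRCm38.p6 and run from 250 bases before to 50 bases after the annotated start, on the strand of the gene. The 9 genes with an entry were searched on both strands for TGANTCA (AP-1), GAGGAA (the PU.1 type of ETS site), an interferon response element type (GAAA, any 2 bases, GAAA) and an NF-κB type (GGG, any 2 bases, TT, any base, CC), and Cd86 had no entry. The starts that RefSeq gives for Zbtb46 and Batf3 lie well inside the genes as GENCODE draws them. Capitals mark the matches to the first 2 motifs, and Flt3 held none.
Itgax, chr7:128129300-128129599, plus strand: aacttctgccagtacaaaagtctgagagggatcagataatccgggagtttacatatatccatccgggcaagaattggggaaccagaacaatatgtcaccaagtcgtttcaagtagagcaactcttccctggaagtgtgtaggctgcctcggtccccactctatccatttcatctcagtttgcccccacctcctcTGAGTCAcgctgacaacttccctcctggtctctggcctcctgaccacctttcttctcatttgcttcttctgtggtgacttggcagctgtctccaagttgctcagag
Cd207, chr6:83677808-83678107, minus strand: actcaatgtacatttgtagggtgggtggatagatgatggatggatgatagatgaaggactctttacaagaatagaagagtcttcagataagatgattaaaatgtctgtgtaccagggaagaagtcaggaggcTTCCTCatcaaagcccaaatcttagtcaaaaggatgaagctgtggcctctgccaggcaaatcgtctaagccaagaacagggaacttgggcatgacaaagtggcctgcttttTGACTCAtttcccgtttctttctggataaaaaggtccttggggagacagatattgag
Zbtb46, chr2:181424339-181424638, minus strand: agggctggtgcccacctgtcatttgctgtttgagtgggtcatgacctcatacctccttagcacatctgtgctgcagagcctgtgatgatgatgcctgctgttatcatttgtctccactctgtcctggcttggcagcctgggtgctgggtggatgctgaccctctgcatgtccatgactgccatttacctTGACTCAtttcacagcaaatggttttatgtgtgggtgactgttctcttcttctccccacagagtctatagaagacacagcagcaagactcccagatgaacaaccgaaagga
Flt3, chr5:147400440-147400739, minus strand: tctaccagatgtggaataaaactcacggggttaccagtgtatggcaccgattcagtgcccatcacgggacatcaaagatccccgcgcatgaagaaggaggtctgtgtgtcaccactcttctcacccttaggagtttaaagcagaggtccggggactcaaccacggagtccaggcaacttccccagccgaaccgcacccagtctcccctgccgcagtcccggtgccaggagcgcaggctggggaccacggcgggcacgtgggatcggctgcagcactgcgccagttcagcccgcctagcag

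The AP-1 letters stood in 3 of 9 promoter entries, those of Itgax at -56, Zbtb46 at -61 and Cd207 at -7 from the start, and in 7.81% of the 32851 promoters of the table. The Zbtb46 match is placed from a start inside the gene, so it may lie in an intron rather than a promoter. The PU.1 type letters stood in 2 of 9, Cd207 at -118 and Batf3 at -153, and in 28.3% of all promoters. The Batf3 match lies within the gene as GENCODE draws it. The interferon type was in none of the 9 and in 3.44% of all, and the NF-κB type was in none of the 9 and in 4.79% of all. These are matches of letters within 300 bases and say nothing of binding.

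Levels are CPM, counts per 1000000 of the scaled library total, and differences are log2 fold changes of mutant minus wild type from edgeR, with their standard error (SE). Each adjusted p comes from its quasi-likelihood test with Benjamini-Hochberg adjustment over all genes tested. Total counts per library ran from 15661515 to 18852963 at day 5 and from 19255028 to 23904976 at 1 month. Card14 itself was at 45.5 ± 7.67 CPM in wild type and 46.2 ± 11.1 in mutants at day 5 (SD, n = 6 each), and at 40.4 ± 7.07 and 14.3 ± 5.63 CPM at 1 month (log2 difference -1.49 ± 0.20, edgeR adjusted p = 1.58e-06). Its RNA does not tell the mutant allele from the other, so it does not check the genotype labels. Among the 1-month libraries 4 stood apart, wild-type replicate 2 and mutant replicates 1, 2 and 6. Their summed level of 4 Y-linked genes was 17.9 to 67.6 CPM against 102 to 267 in the other 20 libraries, while Xist was at most 0.174 CPM in all 24. The rank correlation, across genes, of a library's deviation from the wild-type day 5 mean with GC content was 0.267 to 0.564 in these 4 and -0.427 to 0.390 in the other 20. The 1-month genotype differences of the 10 genes are therefore given with all libraries and without these 4, which leaves 5 wild-type and 3 mutant libraries. For other genes and lists the value without them is given where a count or call of the 1-month genotype difference changed or its fold moved by over 1.5 times. The part of this split in each result was not tested beyond that.

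At day 5, 4 of the 9 genes tested rose in mutant ears (Itgax, Batf3, Cd86 and Cd209a), none fell and 5 were not called at an adjusted p below 0.05, where 20.7% of all genes tested rose and 20.2% fell. Flt3, Zbtb46, Xcr1, Cd207 and Epcam were the 5 not called. At 1 month 8 of 9 rose and none fell, where 25.5% of all genes rose and 21.5% fell, and Cd207 was the 1 not called. Every mutant library lay above every wild-type library for 4 of the 10 genes at day 5, as for 17.9% of all genes tested, and for 5 of 10 at 1 month, as for 12.2% (7 of 10 without the 4 libraries, as for 24%). These shares do not cover Clec9a, which failed the filter but is among the 5 and the 7. The median log2 fold change of the tested genes was 0.60 at day 5 and 0.99 at 1 month, against -0.02 and 0.05 over all genes. Xcr1 passed the filter through the mutant libraries of 1 month alone, so its place in the 1-month count and median was partly set by the filter. Without the 4 libraries Clec9a passed the filter too, through the 3 mutant libraries of 1 month alone, and it is left out of the count. Of the other 9 genes 7 then rose at 1 month, with Batf3 lost, where 26.2% of all genes rose. A change in the number of cells of a type and a change in RNA per cell cannot be told apart in whole-ear RNA.

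**Figure D1:**
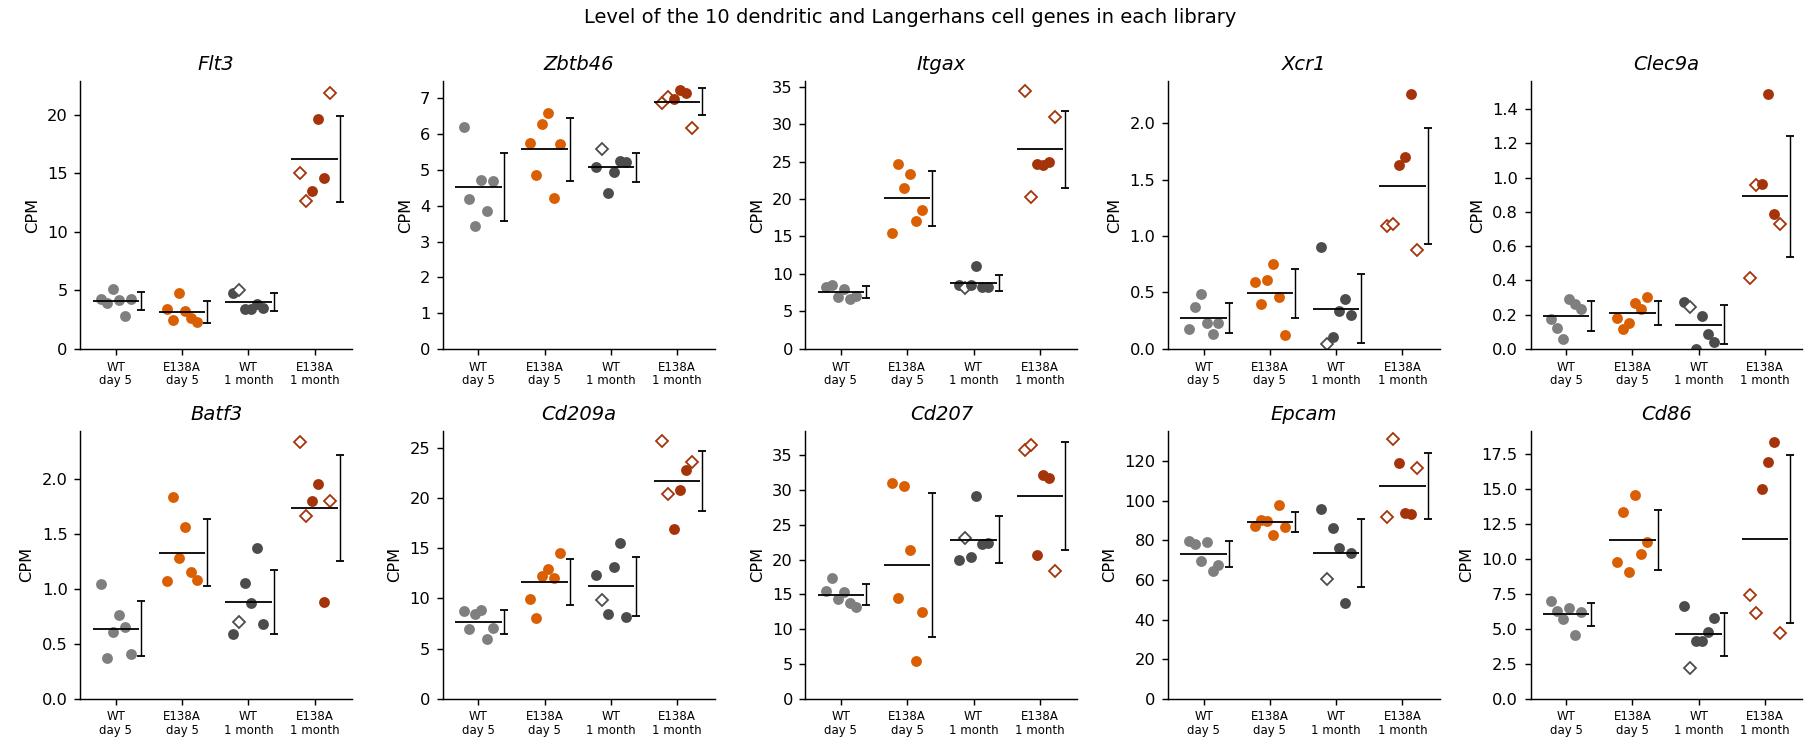
Level of each gene in CPM (vertical axis, from 0) in each of the 24 libraries by group (WT, wild type; E138A, Card14 mutant). Points are libraries, open diamonds are the 4 libraries that stood apart, lines are group means and bars the SD (n = 6). Flt3 lies at 12.6 to 21.9 CPM in the 1-month mutants and at no more than 5.14 CPM in the other 3 groups, while Itgax is already raised in the mutants at day 5.

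Flt3 (ENSMUSG00000042817, GRCm38 chromosome 5, 147330741 to 147400489, minus strand) encodes the receptor for FLT3 ligand, on which conventional dendritic cells and their progenitors depend. In wild-type ears at day 5 the lowest, median and highest libraries were at 2.81, 4.24 and 5.14 CPM, and in mutant ears at 2.29, 2.95 and 4.81 CPM. At 1 month they were 3.37, 3.66 and 5.05 CPM in wild type and 12.6, 14.8 and 21.9 CPM in mutants. Each of the 6 mutant libraries at 1 month lay above every other library of the series, and the other 3 groups overlapped. The log2 fold change was -0.38 ± 0.19 at day 5, which was not called (edgeR adjusted p = 0.116), and 2.02 ± 0.19 at 1 month, a 4.05-fold rise (edgeR adjusted p = 1.24e-08). The difference between these, the interaction, was 2.40 ± 0.27 (edgeR adjusted p = 3.42e-06). With all libraries Flt3 was the only one of the 9 tested genes called in the interaction. Among all genes 4.68% had a higher and 4.09% a lower difference at 1 month. Cd86 was called too without the 4 libraries. Within mutant ears Flt3 rose by 2.36 ± 0.19 from day 5 to 1 month (edgeR adjusted p = 6.07e-09). In wild-type ears its change was -0.04 ± 0.19 (edgeR adjusted p = 0.908). Without the 4 libraries the 1-month value was 2.05 (edgeR adjusted p = 2.34e-07). At day 5, Flt3 was called lower (-0.56, edgeR adjusted p = 0.0245) once mutant replicate 3, its highest mutant library, was left out.

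Flt3l, which encodes the ligand of this receptor, fell in mutants and is named here after its values were seen. It was at 21.9 to 25.6 CPM in wild-type ears against 11.8 to 22.3 CPM in mutants at day 5, and at 13.2 to 25.9 and 11.4 to 18.8 CPM at 1 month. The groups overlapped at both times, and the log2 fold changes were -0.60 ± 0.17 (edgeR adjusted p = 0.00565) and -0.45 ± 0.17 (edgeR adjusted p = 0.0263). Without the 4 libraries the 1-month value was -0.23 ± 0.19 and was not called (edgeR adjusted p = 0.322).

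Zbtb46 (ENSMUSG00000027583, chromosome 2, 181387762 to 181459426, minus strand) encodes a transcription factor of conventional dendritic cells that endothelial cells also express. Its lowest, median and highest levels at day 5 were 3.45, 4.44 and 6.19 CPM in wild type and 4.23, 5.73 and 6.59 CPM in mutants. At 1 month they were 4.37, 5.15 and 5.58 CPM and 6.18, 7.02 and 7.23 CPM, with no overlap. The log2 fold change of 0.30 ± 0.14 at day 5 was not called (edgeR adjusted p = 0.0774), although leaving out wild-type replicate 1 or mutant replicate 5 of day 5 made it so, with values up to 0.41 and an adjusted p down to 0.0149. At 1 month it rose by 0.44 ± 0.13 (edgeR adjusted p = 0.00793), and by 0.50 without the 4 libraries (edgeR adjusted p = 0.0180). Of 5 endothelial markers 2 also rose at 1 month, Vwf (1.00 ± 0.18) and Pecam1 (0.68 ± 0.16). The summed level of the 5 was 165 to 267 CPM in wild-type ears against 258 to 436 CPM in mutants. Without the 4 libraries it was 165 to 235 and 258 to 275 CPM. The part of endothelial RNA in the Zbtb46 result was not tested.

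Itgax (ENSMUSG00000030789, chromosome 7, 128129547 to 128150657, plus strand) encodes CD11c, the integrin chain most used to mark dendritic cells, which some macrophages and activated lymphocytes also carry. Its lowest, median and highest levels were 6.60, 7.56 and 8.51 CPM in wild type and 15.5, 20.1 and 24.7 CPM in mutants at day 5, and 8.17, 8.37 and 11.0 CPM against 20.2, 24.8 and 34.4 CPM at 1 month. The genotypes did not overlap at either time. Of its 24 deposited values 15 were not whole, which RSEM gives where reads fit more than 1 place. It rose 2.66-fold at day 5 (log2 1.41 ± 0.14, edgeR adjusted p = 4.03e-08) and 3.03-fold at 1 month (1.60 ± 0.14, edgeR adjusted p = 3.88e-09), and 1.45 remained without the 4 libraries (edgeR adjusted p = 1.88e-07). The genotype difference was not shown to change between the times (interaction 0.19 ± 0.19, edgeR adjusted p = 0.706). Itgax was thus higher at day 5, when Flt3 was not called higher.

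Markers of macrophages, which can carry Itgax and Cd86, were higher as well. Of 12 markers 11 rose and 1 fell at day 5, and 11 rose at 1 month, 6 of 12 without the 4 libraries. Fcgr1, an Fc receptor of macrophages and monocytes, rose by 3.00 ± 0.36 at day 5 and 2.55 ± 0.36 at 1 month. Adgre1, which encodes F4/80, rose by 0.95 ± 0.18 at 1 month. The summed level of the 12 was 488 to 609 CPM in wild-type ears against 736 to 1905 CPM in mutants at day 5. At 1 month it was 435 to 1083 and 983 to 2043 CPM, or 435 to 1083 and 983 to 1258 CPM without the 4 libraries. No marker of the list was at 0 in a whole group. The part of macrophage RNA in the Itgax and Cd86 results was not tested.

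**Figure D2:**
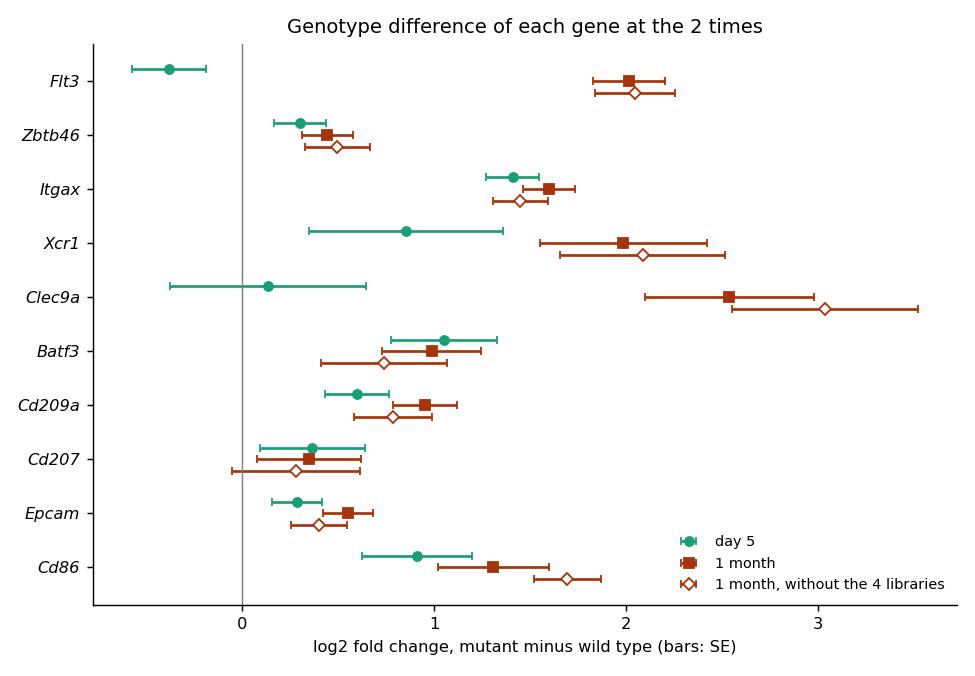
Log2 fold change of mutant minus wild type (horizontal axis) for each gene, with bars of 1 SE, at day 5 (circles), at 1 month (squares) and at 1 month without the 4 libraries that stood apart (open diamonds). Clec9a, which did not pass the filter, is shown from the fit without a filter at day 5 and 1 month. Flt3 is at -0.38 at day 5 and 2.02 at 1 month, whereas Batf3 is at 1.05 and 0.99.

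Xcr1 (ENSMUSG00000060509, chromosome 9, 123852315 to 123862029, minus strand) encodes the receptor for the chemokine XCL1 and marks cDC1. It was scarce, with 27 counts in all 6 wild-type and 53 in all 6 mutant libraries at day 5, and 50 and 189 at 1 month. The lowest, median and highest levels were 0.131, 0.232 and 0.484 CPM and 0.120, 0.528 and 0.756 CPM at day 5. At 1 month they were 0.0411, 0.319 and 0.899 CPM in wild type and 0.876, 1.37 and 2.26 CPM in mutants. Wild-type replicate 1, the highest of its group, was the only wild-type library of 1 month within the mutant range. The day 5 difference of 0.85 ± 0.51 was not called (edgeR adjusted p = 0.186), and the rise at 1 month was 1.99 ± 0.43 (edgeR adjusted p = 0.000535), or 2.09 without the 4 libraries, where the groups did not overlap (edgeR adjusted p = 0.000388). Its interaction of 1.13 ± 0.68 was not called (edgeR adjusted p = 0.397). Xcr1 passed the filter through the mutant libraries of 1 month alone, where it is high. Its 1-month call was thus partly set by the filter.

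Clec9a (ENSMUSG00000046080, chromosome 6, 129408862 to 129424763, plus strand) encodes the cDC1 receptor for dead cells and was the scarcest of the 10 genes per length in every group. Its exons share 184 bases with Clec1b on the same strand, so some reads could be split between these genes. The counts summed over 6 libraries were 19 and 22 at day 5 and 20 and 117 at 1 month. At day 5 levels ran from 0.0604 to 0.291 CPM in wild-type ears and 0.115 to 0.301 CPM in mutants, with medians of 0.203 and 0.205 CPM. At 1 month they ran from 0 to 0.274 CPM in wild type, median 0.141, and from 0.416 to 1.49 CPM in mutants, median 0.870, without overlap. The library at 0 allows up to 0.158 CPM (3 counts). In a fit without the filter, where 13.4% of 32140 genes rose at 1 month, Clec9a rose by 2.54 ± 0.44 (edgeR adjusted p = 4.21e-05), its day 5 difference was 0.13 ± 0.51 (edgeR adjusted p = 0.946) and its interaction was 2.41 ± 0.69 (edgeR adjusted p = 0.0446). Without the 4 libraries it passed the filter only through the mutant libraries of 1 month, where it is high, so its values of 3.04 ± 0.49 at 1 month and 2.90 ± 0.71 in the interaction are given as a description. Like Flt3, it was high only in the mutant libraries of 1 month.

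Batf3 (ENSMUSG00000026630, chromosome 1, 191097847 to 191108945, plus strand) encodes the AP-1 family factor that cDC1 need to develop, and is also found in activated T cells. The lowest, median and highest levels at day 5 were 0.370, 0.629 and 1.04 CPM in wild type and 1.07, 1.22 and 1.83 CPM in mutants, without overlap. At 1 month they were 0.587, 0.785 and 1.37 CPM and 0.877, 1.80 and 2.34 CPM, and the groups overlapped. It rose by 1.05 ± 0.28 at day 5 (edgeR adjusted p = 0.00371) and 0.99 ± 0.26 at 1 month (edgeR adjusted p = 0.00281). Without the 4 libraries the 1-month value was 0.74 ± 0.33 and was not called (edgeR adjusted p = 0.0618). Batf3 was called at day 5 and Xcr1 was not, but their day 5 differences, 1.05 ± 0.28 and 0.85 ± 0.51, were not tested against each other. Markers of T and NK cells went both ways. Of 7 tested, 4 fell and none was called higher at day 5, and 2 rose and 3 fell at 1 month (2 and 4 without the 4 libraries). Cd3e, a chain of the T cell receptor complex, was at -1.24 ± 0.21 at day 5. Cd8a and Ncr1 are named after their values were seen. Cd8a, the coreceptor chain of cytotoxic T cells, was at 1.31 ± 0.65 at day 5 (edgeR adjusted p = 0.112) and rose by 2.69 ± 0.42 at 1 month. Ncr1, an NK cell receptor gene that did not pass the filter, was at 0 to 0.131 CPM in wild-type ears against 0.178 to 0.486 CPM in mutants at day 5, without overlap. The summed level of all 8 markers at day 5 was 40.1 to 56.6 CPM in wild-type ears against 15.0 to 33.8 CPM in mutants, and the part of T and NK cell RNA in the Batf3 result was not tested.

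The list of other cDC1 genes was mixed. Of 9 tested genes 4 rose and 1 fell at day 5, and 5 rose and 2 fell at 1 month (5 and 1 without the 4 libraries), with medians of 0.06 and 0.54. Irf8, which encodes the factor that cDC1 need beside BATF3, was at 4.92 to 8.81 CPM in wild-type ears against 21.0 to 41.9 CPM in mutants at 1 month, a rise of 2.00 ± 0.23 (edgeR adjusted p = 1.51e-07). Wdfy4, needed for cross-presentation by cDC1, rose by 1.44 ± 0.22 at day 5 and 1.97 ± 0.22 at 1 month. Cd24a, which keratinocytes also express, rose by 1.32 ± 0.14 at 1 month, and Naaa by 1.21 ± 0.14 at day 5. The gene of the XCR1 ligand, Xcl1, which T and NK cells make, fell at both times. At day 5, when Xcr1 was not called, it was at 1.42 to 3.76 CPM in wild-type ears against 0.116 to 0.831 CPM in mutants (-2.58 ± 0.37, edgeR adjusted p = 6.80e-06). At 1 month it was at 1.50 to 3.23 CPM in wild-type ears against 0.0425 to 0.260 CPM in mutants (-3.81 ± 0.40, edgeR adjusted p = 6.73e-08). T and NK cell markers summed to 48.2 to 63.8 CPM in wild-type ears against 15.1 to 33.0 CPM in mutants at 1 month. Without the 4 libraries these sums were 53.1 to 63.8 and 15.1 to 18.6 CPM. The part of T and NK cell RNA in the Xcl1 result was not tested.

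Cd209a (ENSMUSG00000031494, chromosome 8, 3743397 to 3748984, minus strand) encodes a C-type lectin of cDC2 and of dendritic cells that derive from monocytes. Its lowest, median and highest levels were 5.94, 7.74 and 8.86 CPM and 8.02, 12.2 and 14.5 CPM at day 5, with overlap, and 8.13, 11.1 and 15.5 CPM and 17.0, 21.8 and 25.8 CPM at 1 month, without. It rose 1.52-fold at day 5 (0.60 ± 0.17, edgeR adjusted p = 0.00573) and 1.94-fold at 1 month (0.95 ± 0.16, edgeR adjusted p = 4.20e-05), and by 0.79 without the 4 libraries (edgeR adjusted p = 0.00277). It was the only one of the 9 genes that also rose with time in wild-type ears (0.55 ± 0.17, edgeR adjusted p = 0.0391), where 6.28% of all genes rose. That call was lost with the replicate number as a block (adjusted p = 0.0699), with the GC correlation as a covariate (adjusted p = 0.0541) and without any of 5 single libraries, wild-type replicates 2, 5 and 6 of day 5 and 4 and 5 of 1 month. All 24 deposited values of Cd209a, which has near paralogs, were whole, as they are where RSEM divided no read between genes.

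Of 9 other cDC2 genes tested 6 rose and 1 fell at day 5, and 5 rose and none fell at 1 month (4 without the 4 libraries). The medians were 0.86 and 0.78. Clec10a and Mgl2 encode galactose-binding lectins that dermal cDC2 and macrophages share. Clec10a rose by 1.35 ± 0.20 at day 5, and at 1 month it was at 20.6 to 50.2 CPM in wild-type ears against 52.3 to 107 CPM in mutants. Mgl2 rose by 0.93 ± 0.17 at 1 month. Sirpa, an inhibitory receptor of cDC2 and macrophages, rose by 1.03 ± 0.17 and 1.02 ± 0.17, and Cd209d, a relative of Cd209a, by 1.73 ± 0.22 at day 5.

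**Figure D3:**
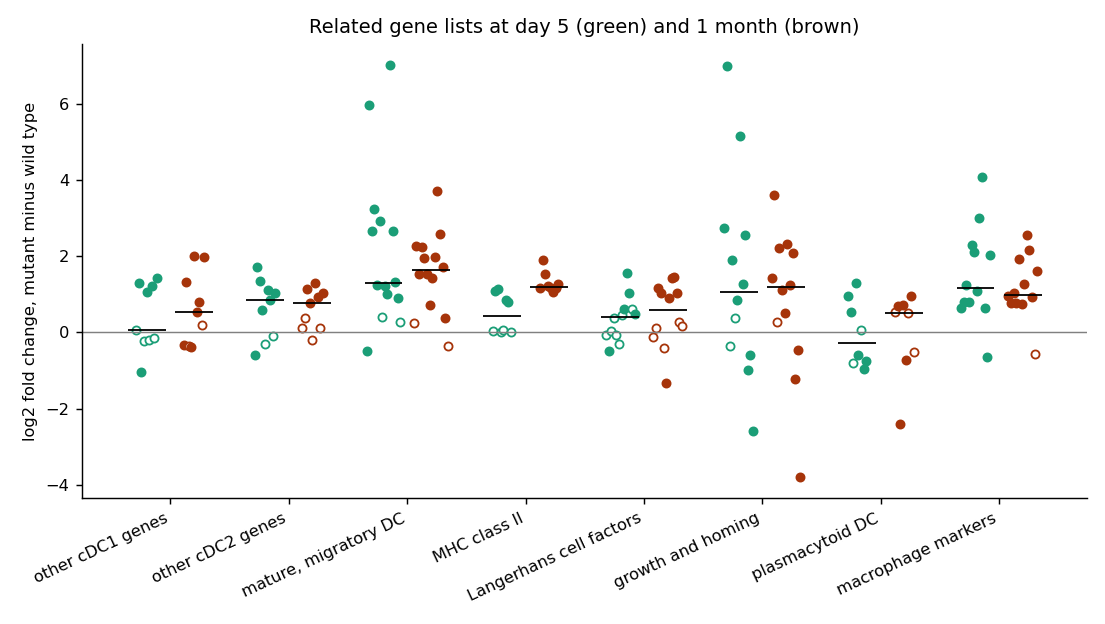
Log2 fold change of mutant minus wild type (vertical axis) for each tested gene of 8 related lists at day 5 (green, left) and 1 month (brown, right). Filled points have an edgeR adjusted p below 0.05, open points do not, and lines are list medians. MHC class II genes move from a median of 0.44 to 1.20 (0.75 without the 4 libraries, not drawn), while Ccl20 (6.99) and Ccl17 (5.98) are high at day 5.

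Cd207 (ENSMUSG00000034783, chromosome 6, 83671215 to 83677857, minus strand) encodes langerin, the lectin of Langerhans cell granules, which part of dermal cDC1 also carry. The lowest, median and highest levels at day 5 were 13.2, 14.8 and 17.4 CPM in wild type and 5.44, 17.9 and 31.0 CPM in mutants. At 1 month they were 19.9, 22.3 and 29.2 CPM and 18.3, 31.9 and 36.4 CPM. The genotypes overlapped at both times, and the spread was wider in mutants, with an SD of 10.3 against 1.51 CPM at day 5. The log2 fold change was 0.37 ± 0.27 at day 5 (edgeR adjusted p = 0.304) and 0.35 ± 0.27 at 1 month (edgeR adjusted p = 0.308), and neither was called. The 1-month value without the 4 libraries was 0.28 ± 0.33 (edgeR adjusted p = 0.500). At day 5 it was called without mutant replicate 5, the lowest library (0.56, edgeR adjusted p = 0.0436), and it had the opposite sign in limma voom with sample quality weights (-0.11, adjusted p = 0.688). In wild-type ears all 6 libraries of 1 month lay above all 6 of day 5, which 2.9% of genes did, and the change of 0.62 ± 0.27 was not called in the fit of all groups (edgeR adjusted p = 0.158).

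The day 5 mutant libraries in which Cd207 was high were those in which S100a8, an alarmin gene of neutrophils and stressed keratinocytes, was low. Replicates 1 and 3 were at 31.0 and 30.6 CPM of Cd207 and at 763 and 900 CPM of S100a8. Replicate 4 was at 21.4 and 2045 CPM. The other 3, replicates 2, 5 and 6, were at 14.5, 5.44 and 12.5 CPM of Cd207 and at 3507, 2316 and 2335 CPM of S100a8. Epcam did not part these libraries, since it was at 87.4 and 89.8 CPM in replicates 1 and 3 and at 82.9 to 98.1 CPM in the other 4. At 1 month mutant S100a8 was at 1590 to 3191 CPM, and the mutant with most S100a8, replicate 2, also had the most Cd207, 36.4 CPM. These are values of few libraries and were not tested.

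**Figure D4:**
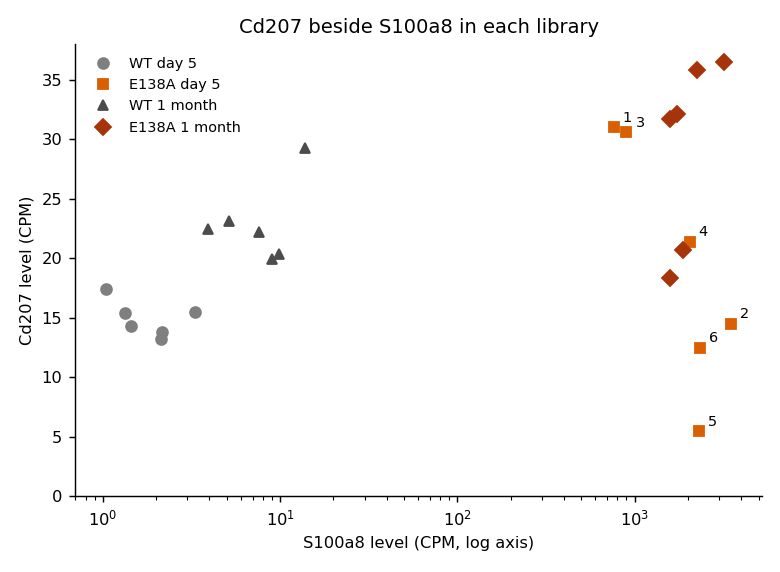
Level of Cd207 (vertical axis, CPM) against S100a8 (horizontal axis, CPM, log scale) in the 24 libraries, with a symbol per group and the replicate number beside the day 5 mutants. Day 5 mutants range from 5.44 to 31.0 CPM of Cd207, and the 2 highest (replicates 1 and 3) have the least S100a8 of that group.

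Epcam (ENSMUSG00000045394, chromosome 17, 87635979 to 87651129, plus strand) encodes an adhesion molecule of Langerhans cells that hair follicle and other epithelial cells also express. Its lowest, median and highest levels were 64.7, 74.0 and 79.8 CPM and 82.9, 88.6 and 98.1 CPM at day 5, without overlap, and 48.4, 75.1 and 95.7 CPM and 91.9, 105 and 131 CPM at 1 month, with overlap. The rise at 1 month was 0.55 ± 0.13 (edgeR adjusted p = 0.00108), or 0.40 without the 4 libraries (edgeR adjusted p = 0.0241). The day 5 difference of 0.29 ± 0.13 was not called with all groups in the fit (edgeR adjusted p = 0.0813) and was called without the 4 libraries of 1 month (0.30, edgeR adjusted p = 0.0342), in a fit of the day 5 groups alone (adjusted p = 0.00138) and without wild-type replicate 5 of 1 month (adjusted p = 0.0389). Of 10 hair follicle markers 5 fell and none rose at day 5, while at 1 month, when Epcam was called, 5 rose and 1 fell (5 and 2 without the 4 libraries). Their summed level was 1538 to 2025 CPM in wild-type ears against 232 to 632 CPM in mutants at day 5, without overlap. At 1 month it was 1806 to 2796 and 464 to 1991 CPM, with overlap. Without the 4 libraries it was 1806 to 2301 and 464 to 1041 CPM, without overlap. Most of this sum in wild-type ears was Krt15, at 1376 to 1876 CPM at day 5 and 1517 to 2565 CPM at 1 month. Krt15 fell at both times, by -2.52 ± 0.28 and -3.24 ± 0.29. Of 7 tested epithelial markers 4 rose and 3 fell at 1 month (2 and 3 without the 4 libraries), with Krt14 at 1.27 ± 0.19 and Krt8 at -1.17 ± 0.25. Their summed level was 14597 to 25383 CPM in wild-type ears against 26907 to 47023 CPM in mutants at 1 month. Without the 4 libraries it was 14597 to 25383 and 26907 to 33390 CPM. The part of epithelial and hair follicle RNA in the Epcam result was not tested.

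Per kb of exon, Epcam, Cd207 and Cd209a were in that order the most abundant of the 10 genes in each of the 4 groups, at 33.4, 9.80 and 4.84 CPM per kb in wild-type ears at day 5 and 49.0, 19.2 and 13.7 CPM per kb in mutants at 1 month. Flt3 was the sixth in both wild-type groups, the eighth in day 5 mutants (0.510 CPM per kb) and the sixth in 1-month mutants (2.63 CPM per kb). Xcr1 and Clec9a were lowest, at 0.325 and 0.270 CPM per kb where they were highest.

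A list of genes linked to Langerhans cells changed in part. Of 12, 4 rose and 1 fell at day 5, and 6 rose and 1 fell at 1 month (6 and 3 without the 4 libraries). Not all are particular to these cells: Cd74 is counted among the MHC class II genes too, and Spi1 is a general myeloid gene. Il34, the keratinocyte cytokine that maintains Langerhans cells, was at 39.0 to 79.8 CPM in wild-type ears against 14.7 to 33.6 CPM in mutants at 1 month, with no overlap (-1.34 ± 0.20, edgeR adjusted p = 5.65e-06). Its day 5 difference was -0.31 ± 0.19 (edgeR adjusted p = 0.211), and the interaction was -1.03 ± 0.28 (edgeR adjusted p = 0.0194). Tgfb1 rose by 1.03 ± 0.20 and its receptor gene Tgfbr2 by 0.50 ± 0.11 at day 5. Runx3, a transcription factor downstream of TGF-β that Langerhans cells need, rose by 1.43 ± 0.17 at 1 month. Spi1, which encodes PU.1, the myeloid factor whose site was searched for above, rose by 1.57 ± 0.27 at day 5.

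Cd86 (ENSMUSG00000022901, chromosome 16, 36603869 to 36666081, minus strand) encodes a ligand of CD28 that dendritic cells raise when they mature and that macrophages and B cells also carry. Its lowest, median and highest levels were 4.57, 6.25 and 6.94 CPM and 9.05, 10.7 and 14.5 CPM at day 5, without overlap, and 2.18, 4.45 and 6.65 CPM and 4.67, 11.2 and 18.3 CPM at 1 month, with overlap. It rose 1.88-fold at day 5 (0.91 ± 0.29, edgeR adjusted p = 0.0133) and 2.48-fold at 1 month (1.31 ± 0.29, edgeR adjusted p = 0.000592). The mutants of 1 month fell into the same sets as the Y-linked genes: replicates 1, 2 and 6, which stood apart, were at 4.67 to 7.39 CPM, and replicates 3, 4 and 5 at 14.9 to 18.3 CPM. The wild-type library that stood apart was the lowest of its group. Without the 4 libraries the 1-month rise was 1.69 ± 0.17 (edgeR adjusted p = 2.62e-07), the groups did not overlap, and the interaction, 0.40 ± 0.40 with all libraries (edgeR adjusted p = 0.710), was called at 0.76 ± 0.23 (edgeR adjusted p = 0.0198), where 9.58% of all genes had a higher difference at 1 month. The GC content of its longest transcript was 43.2%, and with per-library GC offsets the rise was 1.23. Of 4 B cell markers only Cd79b passed the filter, at -0.78 ± 0.44 at day 5 (edgeR adjusted p = 0.165) and 1.75 ± 0.36 at 1 month, or 1.03 ± 0.38 without the 4 libraries (edgeR adjusted p = 0.0262). The 4 markers summed to at most 4.32 CPM in any library, and to at most 1.67 CPM outside the 4 libraries. The part of B cell RNA in the Cd86 result was not tested.

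**Figure D5:**
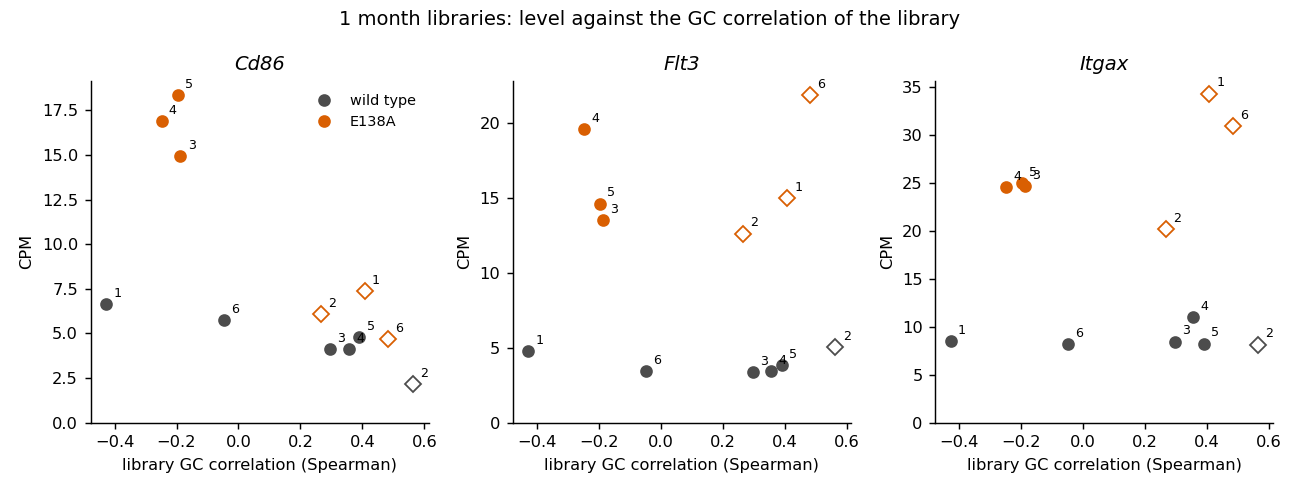
Levels of Cd86, Flt3 and Itgax (vertical axes, CPM) in the 12 libraries of 1 month against the rank correlation of each library's deviations with gene GC content (horizontal axis), with replicate numbers and open diamonds for the 4 libraries that stood apart. The mutants part into 4.67 to 7.39 and 14.9 to 18.3 CPM for Cd86 along this axis, while for Flt3 the same sets cover 12.6 to 21.9 and 13.5 to 19.6 CPM.

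Most other genes of dendritic cell maturation and migration rose. Of 14, 11 rose and 1 fell at day 5 (median 1.29), and 12 rose and none fell at 1 month (median 1.63), 10 of 14 without the 4 libraries. Ccl17 and Ccl22 encode the ligands of CCR4 that mature dendritic cells, among other cells, can secrete. Ccl17 was at 0.308 to 0.810 CPM in wild-type ears against 32.2 to 42.6 CPM in mutants at day 5 (5.98 ± 0.38, edgeR adjusted p = 6.84e-11), and at 0.370 to 2.74 and 2.72 to 10.4 CPM at 1 month (2.26 ± 0.32, or 1.57 ± 0.29 without the 4 libraries). Ccl22 rose by 2.66 ± 0.16 and 1.52 ± 0.15. Il4i1, an amino acid oxidase of mature dendritic cells, rose by 2.67 ± 0.26 and 2.58 ± 0.25, and Fscn1, the actin bundling protein of their processes, by 1.99 ± 0.20 at 1 month. The part of other cells, such as the macrophages whose markers also rose, in the results of this list was not tested.

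Genes of MHC class II presentation differed between the times. At day 5, 4 of 8 rose, and at 1 month 8 of 8 rose, 7 of 8 without the 4 libraries, with 5 of 8 called higher in the interaction. The median was 0.44 at day 5 and 1.20 at 1 month, but 0.75 at 1 month without the 4 libraries. Their summed level in 1-month mutants was 2185 to 4964 CPM, and 2185 to 2753 CPM without the 4 libraries. The interaction count is with all libraries only. H2-Aa, a chain of the I-A molecule, was at 185 to 261 CPM in wild-type ears against 125 to 249 CPM in mutants at day 5. At 1 month it was at 207 to 383 and 442 to 1022 CPM (1.22 ± 0.19, edgeR adjusted p = 1.36e-05). Ciita, the coactivator that switches these genes on, rose by 1.08 ± 0.16 at day 5 and 1.89 ± 0.16 at 1 month, and Ctss, a protease of this pathway, by 1.52 ± 0.19 at 1 month.

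Growth factors and chemokines that act on dendritic cells rose in 7 of 12 cases and fell in 3 at day 5, and in 8 and 3 at 1 month (8 and 2 without the 4 libraries). Ccl20, which draws CCR6 carrying cells into the epidermis, was at 0.261 to 0.868 CPM in wild-type ears against 59.0 to 75.1 CPM in mutants at day 5 (6.99 ± 0.47, edgeR adjusted p = 1.55e-10), and at 1.80 to 9.26 CPM in mutants at 1 month. Csf2, which encodes GM-CSF, rose by 5.14 ± 0.42 at day 5, when it reached 2.14 to 4.11 CPM. The shared receptor chain gene Csf2rb rose by 2.55 ± 0.21 and 2.09 ± 0.21, and Csf2ra by 1.24 ± 0.15 at 1 month. Plasmacytoid genes were mixed, with 3 of 8 higher and 3 lower at day 5 and 3 higher and 2 lower at 1 month, which became 1 higher and 2 lower without the 4 libraries (median -0.03 against 0.52).

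With time in mutant ears, 4 of the 9 genes rose and none fell, where 11.2% of all genes rose and 8.23% fell. They were Flt3, given above, Xcr1 (1.54 ± 0.43, edgeR adjusted p = 0.0125), Cd209a (0.90 ± 0.17, edgeR adjusted p = 0.0003) and Itgax (0.41 ± 0.13, edgeR adjusted p = 0.0338). Xcr1 passed the filter through the 1-month mutant libraries alone, so its place in this count was partly set by the filter. Every 1-month mutant library lay above every day 5 mutant library for 4 of the 10 genes, Flt3, Xcr1, Cd209a and Clec9a, as for 5.05% of all genes tested. That share does not cover Clec9a, which failed the filter. For Itgax these libraries overlapped, and without the 4 libraries its value was 0.29 and was not called (edgeR adjusted p = 0.137). It was also lost without any of 5 single libraries, mutant replicates 1, 5 and 6 of day 5 and 1 and 6 of 1 month. Cd86 was not called with all libraries (0.01 ± 0.28, edgeR adjusted p = 0.992) and rose by 0.55 without the 4 (edgeR adjusted p = 0.0209).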

How the data were processed

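The authors deposited 1 table of RSEM expected counts, with Ensembl genes as rows and the 24 samples as columns, unscaled between libraries, per the file headers. STAR 2.5.2, RSEM 1.3.0, DESeq2 1.14.1 and build GRCm38 are named in the submitters' processing notes. Whether counting used strand is not stated there. Fractional values made up 6.71% of the table, which was rounded to whole counts. Of 51912 genes 51719 were matched in GENCODE M21 for symbols, coordinates, exon lengths and GC content, and 193 were not.

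Counts were fitted in R 4.3.3 with edgeR 4.0.16 (filterByExpr by group, TMM factors, robust quasi-likelihood, 1 coefficient per group over all 24 libraries). Tests are two-sided and Benjamini-Hochberg adjusted over all genes tested, with calls below 0.05, and the 5 contrasts are both genotype differences, their interaction and the change with time in each genotype. The SE is the log2 fold change divided by the square root of F. CPM use the TMM-scaled totals. No pair of replicates was a repeat (smallest chi-square per degree of freedom 4.86 over genes with at least 20 counts). Alternatives used limma 3.58.1 voom with sample quality weights, DESeq2 1.42.0, other scalings and filters, a replicate block and each library left out. Leaving out the 4 libraries that stood apart and the GC covariate and offsets were chosen after seeing the data. The script was tested on simulated counts.

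The genes and the 14 related lists were chosen with earlier results of these data known. Genes named from a list are among the 3 with the smallest adjusted p at a time, given at least 1 CPM in a group, or others where so stated. Not all of these 3 are named. Trdc, Krt1 and Ly6c2, with the smallest adjusted p of their lists at day 5, and all plasmacytoid genes are left out. Some genes that this rule names at 1 of the times are given at the other too. A planned description of covariation among the genes is not given, because the libraries of 1 month fall into separate sets.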

Additional observations from a re-analysis of the deposited data

Results flagged for a closer look

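In wild-type ears at 1 month the highest Itgax library, replicate 4, was at 11.0 CPM, while the other 5 lay between 8.17 and 8.56 CPM. The same library was the highest for Cd207, at 29.2 CPM, with the other 5 between 19.9 and 23.1 CPM. In mutant ears at 1 month the lowest Zbtb46 library, replicate 6, was at 6.18 CPM, and the other 5 were between 6.87 and 7.23 CPM. In each case the gap to the nearest library took up more of the whole range than Dixon's critical value allows. This held in 3 of 40 groups examined, and chance alone gives about 1 in 20. The genotype difference of Flt3 differed between the times, with an interaction of 2.40 in the test of that difference.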

How the results depend on the processing

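Of 524 comparisons of a single gene with an alternative setting, leaving out single libraries aside, 491 kept their direction and side of the threshold, 9 lost a call, 14 gained one and 10 changed sign. With 1 library left out these were 1036, 10, 6 and 28 of 1080. The calls of Flt3, Itgax, Xcr1, Zbtb46, Cd209a, Batf3, Epcam and Cd86 at 1 month held in each of the 24 fits with 1 library left out. For Xcr1 the call was partly set by the filter, as given above. The signs that changed were of values that were not called. For Flt3 with time in wild type these were 0.013 in DESeq2, 0.012 with RLE factors and 0.016 with no filter. In limma voom Cd207 was at -0.11 at day 5 and 0.28 in the interaction, and Itgax at -0.051 in the interaction. With the replicate block Cd207 was at 0.033 in the interaction, Epcam at -0.0069 with time in wild type (-0.048 with GC offsets) and Cd86 at -0.064 with time in mutants. With 1 library left out the ranges across 0 were -0.21 to 0.17 (Cd207) and -0.26 to 0.11 (Batf3) in the interaction, -0.13 to 0.081 (Flt3), -0.055 to 0.10 (Epcam) and -0.12 to 0.68 (Xcr1) with time in wild type, and -0.18 to 0.19 (Cd86) with time in mutants. Genes called with time in wild type, 1572, became 2458 in DESeq2, 8227 in voom, 1019 with the replicate block, 3168 without the 4 libraries, 2661 with GC offsets and 937 to 3026 with 1 library left out, lowest without wild-type replicate 5 and highest without wild-type replicate 1 of 1 month. Their higher share, 69.1%, became 79.6% with RLE factors, 81.4% with total counts only and 80.4% with no filter. Genes called at day 5, 7068, became 11699 in voom. In the interaction 1516 became 8217 in voom, 4630 without the 4 libraries and 2330 with the GC covariate, and with time in mutants 3360 became 5886 in voom and 2109 with only the groups compared. Of the 10 genes, those called lower at day 5 became 1 in voom (Flt3), with a range of 0 to 1 with 1 library left out. Those higher in the interaction became 3 in voom, 2 with no filter and 3 without the 4 libraries. With 1 library left out they numbered 1 to 2, and Clec9a passed the filter in 19 of 24 fits and was called in 18. In those fits and without the 4 libraries Clec9a passed through the mutant libraries of 1 month alone, where it is high. Its calls there were thus partly set by the filter and are given as a description. With time in wild type those higher became 2 in voom, 2 with only the groups compared, 0 with the replicate block, 0 with the GC covariate and 0 to 1 with 1 library left out, and 1 (Cd86) was lower in voom. The cause of these changes was not tested. The replicate numbers did not pair the samples: deviations of same-numbered samples correlated at -0.158 to 0.0514 at day 5 and -0.733 to 0.258 at 1 month, and no library correlated best with its own number there. Low counts limit Xcr1, Clec9a and Batf3, which had 1, 0 and 6 counts in their lowest libraries.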
